A study of Bos taurus with 38 samples.

Results

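CHRNE (ENSBTAG00000004908) and RYR1 (ENSBTAG00000006999) are channel genes known mainly from skeletal muscle, and their read counts were followed here through 38 liver libraries of dairy cows. They are 2 of the 24616 genes counted. Both were chosen by their measured levels in the Holsteins, where they were listed as differing between residual feed intake (RFI) groups, so the Holstein levels by RFI group are given below as a description, without a test.

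The libraries came from liver biopsies of 9 Holstein and 10 Jersey cows (Bos taurus). Residual feed intake is the feed a cow eats above or below what is predicted from her production and body weight, and low-RFI cows, labelled as having high feed efficiency, eat less than predicted. The Holsteins comprised 4 cows of high and 5 of low RFI, and the Jerseys 5 of each. These groups follow the feed efficiency labels. In the study's table of cows, the Holstein RFI group named High has the size and parities of the low-RFI group here. Its RFI values there are mostly negative. Each cow ate the control diet with little concentrate (C) in one period and the high concentrate diet (HC) in the other, in a crossover, and was biopsied once on each, which gave 2 libraries per cow. The cows were in parity 1, 2 or 3 (3, 3 and 3 Holsteins, and 4, 2 and 4 Jerseys), and each parity held cows of both RFI groups in each breed. All 38 libraries were sequenced in the same run, and 17472750 to 24478289 read pairs fell on genes (median 19814536). The C and HC libraries were taken as belonging to a cow by their labels. Over all genes tested, the own HC library was the most similar to the C library in 9 of 9 Holsteins but in 7 of 10 Jerseys, and the own libraries of Jerseys 10, 14 and 17 correlated weakly or negatively. Whether libraries of these Jerseys were exchanged could not be settled, so Jersey differences between HC and C, and Jersey cow means, may mix animals.

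The muscle acetylcholine receptor is a ligand-gated cation channel of the neuromuscular endplate, where acetylcholine released by the motor nerve opens it. CHRNE encodes its epsilon subunit, which replaces the fetal gamma subunit in adult muscle. RYR1 encodes the ryanodine receptor of skeletal muscle, the channel through which calcium leaves the sarcoplasmic reticulum when the fibre is excited. Hepatocytes release stored calcium mainly through inositol trisphosphate receptors, a different family of channels. Partner genes of both channels could not be followed, because symbols and identifiers were paired for 77 genes only, and among them CHRNE was the sole muscle receptor subunit and RYR1 the sole calcium release channel. The hepatocyte markers were likewise not analysed here. MYOM1, which encodes an M-band protein of striated muscle, was the 1 of 25 skeletal muscle markers with an identifier, so it is given beside the channel genes. The biopsy needle passed through the muscle between the ribs, whose numbing is described in the methods of the study.

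Both genes were detected in every library at low levels. CHRNE had 53 to 548 read pairs per library (median 89) and RYR1 had 56 to 286 (median 134.5). Levels are given as CPM, the read pairs of the gene among every 1000000 read pairs on genes in that library. CPM is not divided by gene length, so levels are compared between cows and not between the genes. In whole tissue, fewer cells that express a gene and less RNA of that gene in each cell cannot be told apart.

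CHRNE took separate levels in different cows, with a wide step between them. The 28 lower libraries reached at most 5.76 CPM and the 10 higher ones began at 11.9 CPM, a ratio of 2.07. The 10 higher libraries were both libraries of 5 cows, Holsteins 1, 11, 16 and 19 and Jersey 4. No cow had a library on each side of that step.

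In the 4 high-RFI Holsteins CHRNE was low throughout. Its levels on C and HC were 4.59 and 3.27 CPM in cow 2, 4.69 and 4.40 in cow 7, 4.25 and 3.35 in cow 9, and 4.48 and 4.61 in cow 15. All 8 of these libraries lay on the lower side of the step.

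Among the 5 low-RFI Holsteins, 4 were high and 1 was low. CHRNE on C and HC was 24.1 and 20.8 CPM in cow 1, 26.2 and 22.1 in cow 11, 27.7 and 23.0 in cow 16, and 21.5 and 20.04 in cow 19. Cow 6 had 5.05 and 3.77 CPM. Its mean over both libraries, 4.41 CPM, lay inside the range of the high-RFI Holsteins, so the RFI groups overlapped through this cow. Over cow means, CHRNE was 4.20 ± 0.397 CPM in high-RFI Holsteins (SD, n = 4) and 19.4 ± 8.56 CPM in low-RFI Holsteins (SD, n = 5). This is the contrast by which the gene was chosen.

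In the Jerseys the single high cow was a high-RFI cow, and all others were low. Among the high-RFI Jerseys, CHRNE on C and HC was 3.60 and 4.18 CPM in cow 3, 11.9 and 21.5 in cow 4, 5.76 and 3.99 in cow 12, 3.46 and 3.74 in cow 13, and 4.52 and 3.93 in cow 18. The low-RFI Jerseys had 3.13 and 4.97 CPM in cow 5, 4.56 and 4.65 in cow 8, 2.94 and 4.53 in cow 10, 5.72 and 3.92 in cow 14, and 5.11 and 4.08 in cow 17. All 10 low-RFI Jersey libraries lay below the step. Cow 4 was also the Jersey with the highest mean MYOM1 level, 93.8 CPM. In the 4 Holsteins with high CHRNE, the MYOM1 means ranged from 9.39 to 70.7 CPM. The part of MYOM1 in the CHRNE levels was not tested.

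**Figure D1:**
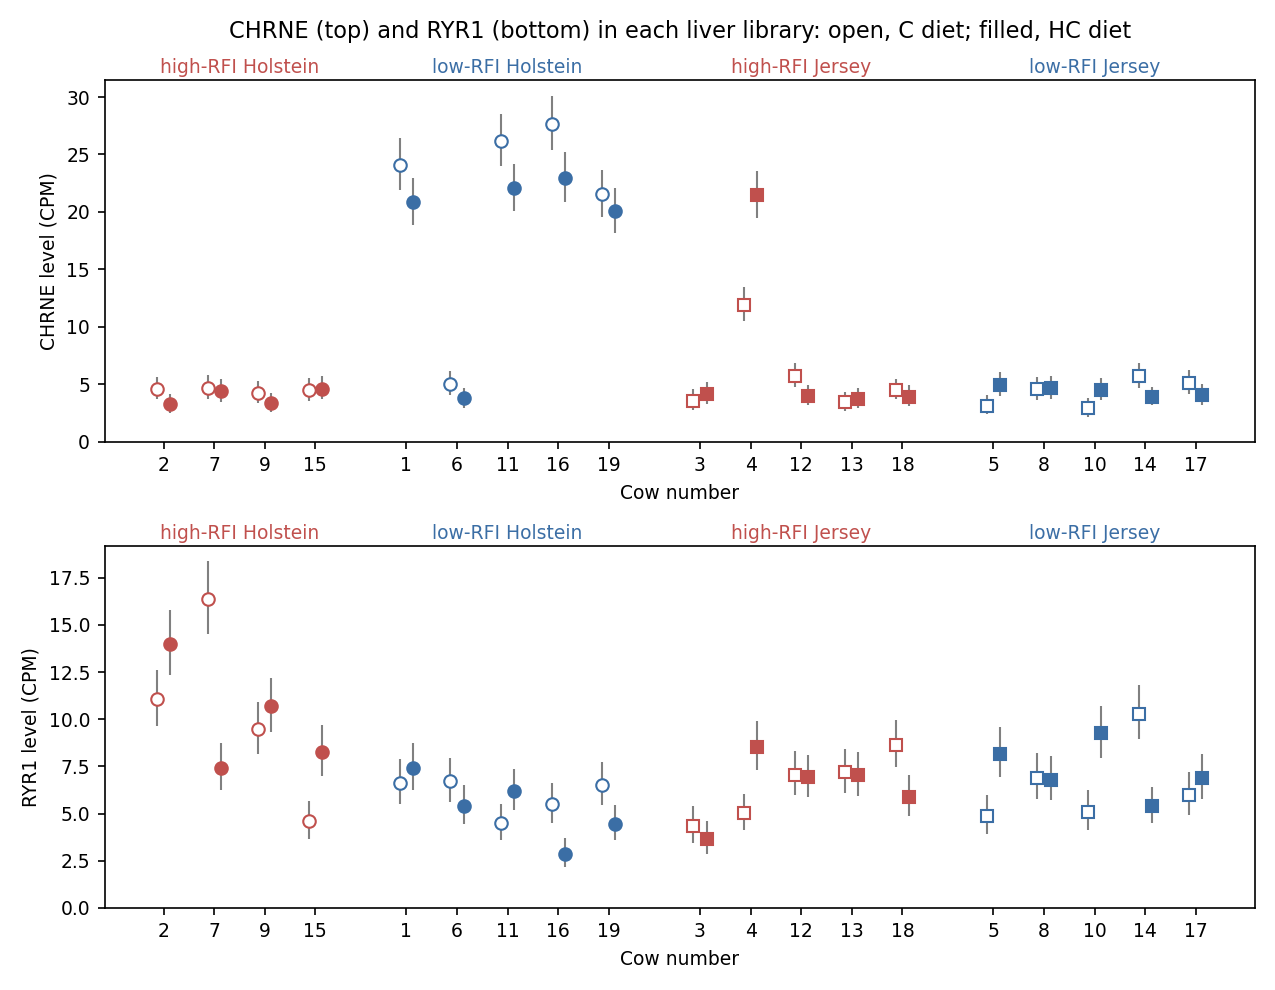
CHRNE (top) and RYR1 (bottom) in CPM for each of the 19 cows, by breed and RFI group, with the C library open and the HC library filled and bars showing the 95% counting interval. CHRNE sits at or above 11.9 CPM in both libraries of cows 1, 4, 11, 16 and 19 and at or below 5.76 CPM in all others, whereas RYR1 forms no separate levels.

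RYR1 showed no such step, since its libraries filled the range from 2.84 to 16.4 CPM. The high-RFI Holsteins had, on C and HC, 11.05 and 14.0 CPM in cow 2, 16.4 and 7.42 in cow 7, 9.47 and 10.7 in cow 9, and 4.58 and 8.26 in cow 15. The low-RFI Holsteins had 6.63 and 7.42 CPM in cow 1, 6.71 and 5.41 in cow 6, 4.49 and 6.22 in cow 11, 5.50 and 2.84 in cow 16, and 6.52 and 4.47 in cow 19. Over cow means, RYR1 was 10.2 ± 2.74 CPM in high-RFI Holsteins (SD, n = 4) and 5.62 ± 1.04 CPM in low-RFI Holsteins (SD, n = 5). The groups overlapped, because the mean of cow 15, 6.42 CPM, was below that of cow 1, 7.02 CPM. This contrast also chose the gene and is not tested. MYOM1 was also higher in the mean of the high-RFI cows, at 66.4 ± 40.9 CPM in high-RFI (SD, n = 4) and 36.6 ± 22.6 CPM in low-RFI Holsteins (SD, n = 5), and its part in the RYR1 levels was not tested. MYOM1 was on the study's own Holstein list too, so its levels are no independent evidence. The lowest RYR1 value, in the HC library of cow 16, came from the library with the lowest share of read pairs assigned to no gene feature. That share was 20.1%, against a median of 24.0%.

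RYR1 in the Jerseys lay between 3.65 and 10.3 CPM. In the high-RFI Jerseys, C and HC gave 4.34 and 3.65 CPM in cow 3, 5.01 and 8.53 in cow 4, 7.07 and 6.92 in cow 12, 7.21 and 7.02 in cow 13, and 8.65 and 5.88 in cow 18. In the low-RFI Jerseys they gave 4.86 and 8.17 CPM in cow 5, 6.90 and 6.80 in cow 8, 5.10 and 9.26 in cow 10, 10.3 and 5.39 in cow 14, and 5.97 and 6.90 in cow 17. Cow 3 was lowest on both diets together, with a mean of 3.99 CPM, and the other 9 Jersey means lay between 6.43 and 7.85 CPM.

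The order of the group means differed between the genes. For CHRNE, low-RFI Holsteins came first, followed by high-RFI Jerseys at 6.66 ± 5.63 CPM (SD, n = 5), low-RFI Jerseys at 4.36 ± 0.453 CPM (SD, n = 5) and high-RFI Holsteins. The lower 3 groups did not differ beyond their spread, and the median of the high-RFI Jerseys was 4.23 CPM. For RYR1, high-RFI Holsteins came first, followed by low-RFI Jerseys at 6.96 ± 0.576 CPM (SD, n = 5), high-RFI Jerseys at 6.43 ± 1.37 CPM (SD, n = 5) and low-RFI Holsteins, and each neighbouring pair of the lower 3 overlapped.

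The question of how stable a cow's level is was addressed by comparing the C and HC libraries of the same cow with libraries of different cows. For CHRNE in Holsteins, the C and HC libraries of the same cow differed by a median of 0.24 on the log2(CPM + 0.5) scale, and libraries of different cows on different diets by a median of 2.02. The SD of a single library within a cow was 0.184, and the SD between cow means, each over 2 libraries, was 1.23. In the Jerseys, where only cow 4 was high, these medians were 0.39 and 0.34, with an SD of 0.313 within and 0.589 between cows. The HC library nearest in CHRNE level to a cow's C library was her own in only 1 of 9 Holsteins and 2 of 10 Jerseys. The Holstein values thus set high cows apart from low ones, and do not show a level particular to each cow. That split largely follows the RFI contrast by which the gene was chosen. The largest change within a cow was that of cow 4, which went from 11.9 CPM on C (95% counting interval 10.5 to 13.4) to 21.5 CPM on HC (19.5 to 23.6), a difference of 0.82.

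For RYR1 the differences within a cow were close to those between cows in Jerseys, and somewhat smaller than those between cows in Holsteins. In Holsteins the C and HC libraries of a cow differed by a median of 0.43, against 0.58 for different cows, with an SD of 0.421 within and 0.516 between cows. In Jerseys the medians were 0.37 and 0.38, with an SD of 0.371 within a cow and 0.237 between cow means. The SD within a cow is that of a single library, and the other is that of means of 2 libraries. The 2 kinds of SD are therefore not directly comparable. The HC library nearest in RYR1 level was the cow's own in 1 of 9 Holsteins and 2 of 10 Jerseys. The largest change was in cow 7, from 16.4 CPM on C to 7.42 CPM on HC. The difference between a cow's libraries exceeded its 95% counting error in 6 of 9 Holsteins and 5 of 10 Jerseys for RYR1, and in 3 of 9 and 5 of 10 for CHRNE.

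**Figure D2:**
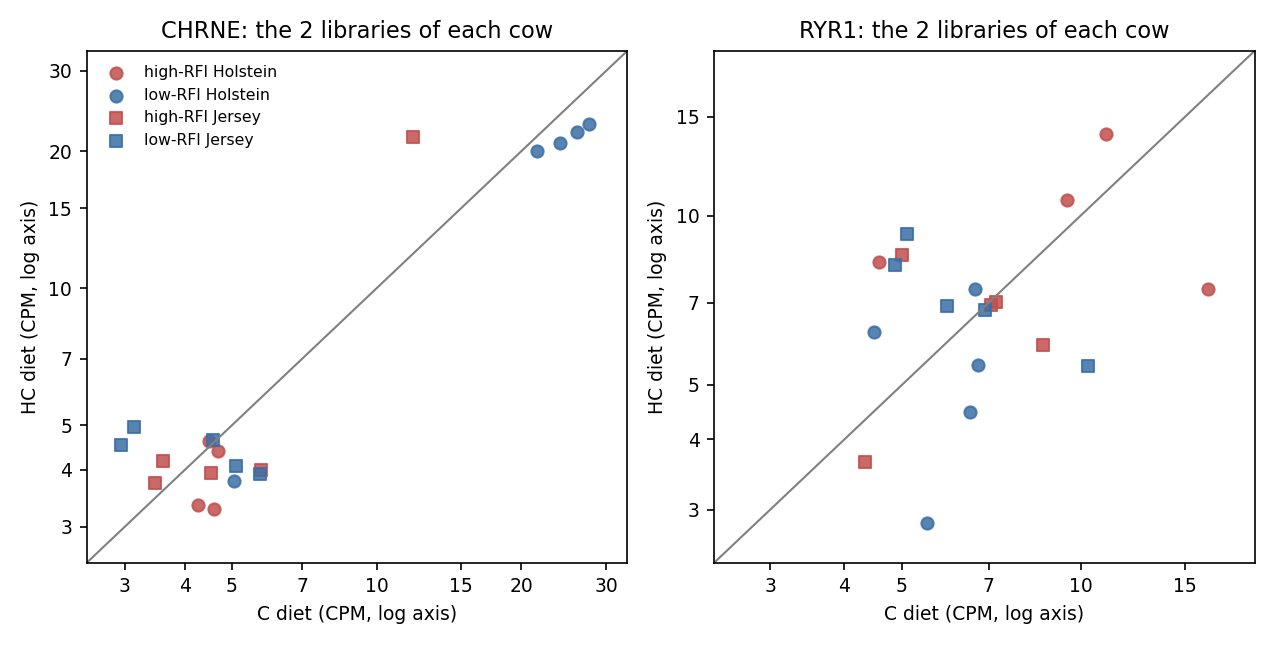
Level on HC (vertical) against level on C (horizontal) in CPM on log axes, 1 point per cow, with the line of equal levels. For CHRNE the 5 high cows lie apart from the 14 low cows along the line, and for RYR1 the points form 1 cloud that scatters widely around the line.

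The RFI comparison in the Jerseys was not used to choose either gene. Neither differed between high-RFI and low-RFI Jerseys in edgeR's quasi-likelihood test (Benjamini-Hochberg adjusted), where 4 of 11905 genes, 0.0336%, were called at an adjusted p below 0.05. The count of called members was 0 of 2 in edgeR, also at an unadjusted p below 0.05, and 0 of 2 in DESeq2. The log2 fold change of CHRNE, high-RFI minus low-RFI, was 0.49 (SE 0.29, adjusted p = 0.936), and without cow 4 it was -0.06. For RYR1 it was -0.12 (SE 0.16, adjusted p = 0.993), with -0.0074 without cow 3 and -0.19 without cow 4. In exact permutation tests over the 10 cow means, p was 0.722 for CHRNE and 0.730 for RYR1 (two-sided).

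The diet comparison asks whether the levels of the same cows moved between C and HC. In Holsteins CHRNE was lower on HC in 8 of 9 cows, by small amounts. The difference HC minus C of log2(CPM + 0.5) ranged from -0.43 to 0.04, with a mean of -0.22 (SD 0.150), and all 5 low-RFI cows, whether high or low in CHRNE, were lower on HC. The exact sign-flip test over the cows gave p = 0.00781 (two-sided, the smallest possible being 0.00391), which adjusted over the 16 exact tests made on both genes was 0.125. In edgeR without a term for the cow, the log2 fold change was -0.20 (SE 0.27, adjusted p = 0.849). With each cow as a fixed block it was again -0.20, with an SE of 0.07 (unadjusted p = 0.0152, adjusted p = 0.175). The difference was therefore not past the threshold after adjustment in any of these tests. RYR1 was higher on HC in 5 and lower in 4 Holsteins, between -1.09 and 0.79, and edgeR gave -0.11 on the log2 scale (SE 0.16, adjusted p = 0.868). Without cow 7 this was 0.04, and without cow 15 it was -0.18. Of the 12025 genes tested in Holsteins, 94 were called for diet, 0.782%, and 0 of the 2 members in edgeR or DESeq2, at an unadjusted p below 0.05 too.

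In Jerseys CHRNE was higher on HC in 6 cows and lower in 4, between -0.49 and 0.82. Its log2 fold change was 0.19 (SE 0.29, adjusted p = 0.842), or 0.02 without cow 4, and the exact test gave p = 0.578. RYR1 was higher on HC in 4 and lower in 6 Jerseys, and edgeR gave 0.14 on the log2 scale (SE 0.16, adjusted p = 0.783), with an exact p of 0.699. Without 1 cow at a time this RYR1 value ranged from 0.05 (without cow 5) to 0.26 (without cow 14), and without cows 10 and 17 it was 0.05. In this comparison 44 of 11905 genes were called, 0.37%, and 0 of the 2 members in edgeR or DESeq2, at an unadjusted p below 0.05 too. MYOM1 was higher on HC in 5 of 5 low-RFI Jerseys, with a median difference of 1.10 (cows 10, 14 and 17 among them), and in 3 of 5 high-RFI Jerseys, whose mean difference was -0.13. Over all Jerseys its log2 fold change of 0.75 (SE 0.40, adjusted p = 0.482) did not pass the test.

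**Figure D3:**
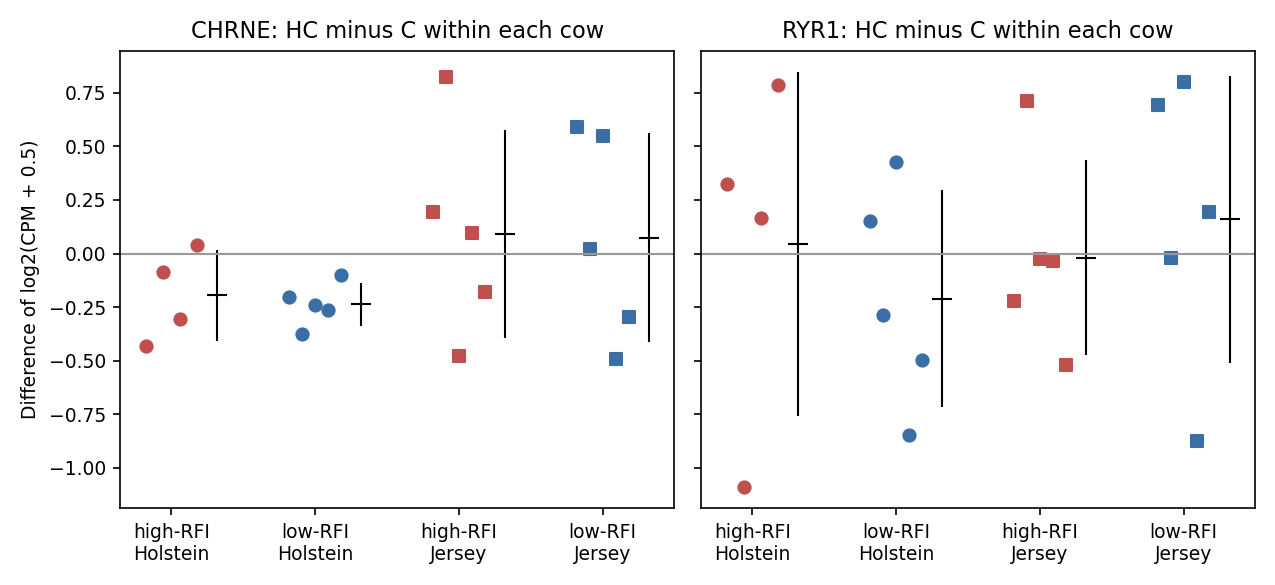
HC minus C within each cow on the log2(CPM + 0.5) scale, by RFI group and breed, with the group mean and SD at the right of each group and a line at 0. CHRNE lies at or below 0.04 in all 9 Holsteins and on both sides of 0 in Jerseys, and RYR1 lies on both sides of 0 in every group.

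The design also asks whether the response to diet depended on RFI. The mean HC minus C difference of CHRNE was -0.20 in high-RFI and -0.24 in low-RFI Holsteins, and 0.09 and 0.07 in the corresponding Jersey groups. The differences between the RFI groups were 0.04 (exact permutation p = 0.714) and 0.02 (exact permutation p = 0.952). For RYR1 they were 0.26 in Holsteins (exact permutation p = 0.563) and -0.18 in Jerseys (exact permutation p = 0.627). Single cows carried much of these RYR1 values. The Holstein value was 0.64 without cow 7 (exact permutation p = 0.125) and 0.01 without cow 15. The Jersey value was -0.44 without cow 14, -0.02 without cow 10 and 0.05 without cows 10 and 17. No value was computed without cows 10, 14 and 17 together. With all cows kept, no difference between the RFI groups was larger than the SD of the HC minus C differences over the cows of that breed.

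Parity 3 was compared with parity 1 in each breed. The mean level of RYR1 in Holsteins was lowest in parity 1, where the cow means were 4.17, 5.50 and 6.42 CPM. They were 5.35, 10.1 and 11.9 CPM in parity 2 and 6.06, 7.02 and 12.5 CPM in parity 3. Parity 2 held 2 high-RFI cows and 1 low-RFI cow, whereas parities 1 and 3 each held 1 high-RFI and 2 low-RFI cows. Parities 1 and 3 overlapped, since the high-RFI cow of parity 1 was above the lowest cow of parity 3. The log2 fold change of parity 3 against 1 was 0.58 (SE 0.20, unadjusted p = 0.0107, adjusted p = 0.279) in edgeR, or 0.38 without cow 15, and the exact permutation test gave p = 0.200, the design allowing nothing below 0.1. The background was 46 of 12025 genes called, 0.383%, and 0 of the 2 members were called in edgeR or DESeq2, with 1 of 2 at an unadjusted p below 0.05 in each.

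MYOM1 was higher in Holsteins of parity 3 than of parity 1, a call that depended on the fit. Its cow means averaged 23.0 CPM in parity 1, 49.4 CPM in parity 2 and 77.1 CPM in parity 3 (n = 3 each), and parity 3 exceeded parity 1 by 1.65 on the log2 scale (SE 0.28, edgeR adjusted p = 0.0201). On the summed libraries of each cow the size was again 1.65 (SE 0.38), but the edgeR adjusted p was 0.395. On separate libraries it was 0.123 without cow 1, 0.119 without cow 2 and 0.0593 without cow 16, and below 0.05 without any other single Holstein. MYOM1 passed in limma-voom with the cow as a random block, at 1.68 (SE 0.29, adjusted p = 0.0292), and in DESeq2 without a cow term (adjusted p = 1.5e-06). Its part in the RYR1 values was not tested. In Jerseys MYOM1 averaged 25.3, 33.5 and 44.3 CPM in parities 1, 2 and 3, while RYR1 averaged 7.16, 7.09 and 6.03 CPM, and neither passed the test. The RYR1 log2 fold change in Jerseys was -0.26 (SE 0.18, adjusted p = 0.571), or -0.13 without cow 3, with an exact permutation p of 0.0857.

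CHRNE was high in 2 Holsteins of parity 1, 1 of parity 2 and 1 of parity 3. The log2 fold change of parity 3 against 1 was -0.68 (SE 0.33, adjusted p = 0.471). It was -0.17 without cow 6 and -1.34 without cow 1. In Jerseys it was 0.64 (SE 0.32, adjusted p = 0.426), and -0.04 without cow 4. In the Jersey comparison 27 of 11905 genes were called, 0.227%, and 0 of the 2 members in edgeR or DESeq2, with 0 and 1 of 2 at an unadjusted p below 0.05.

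**Figure D4:**
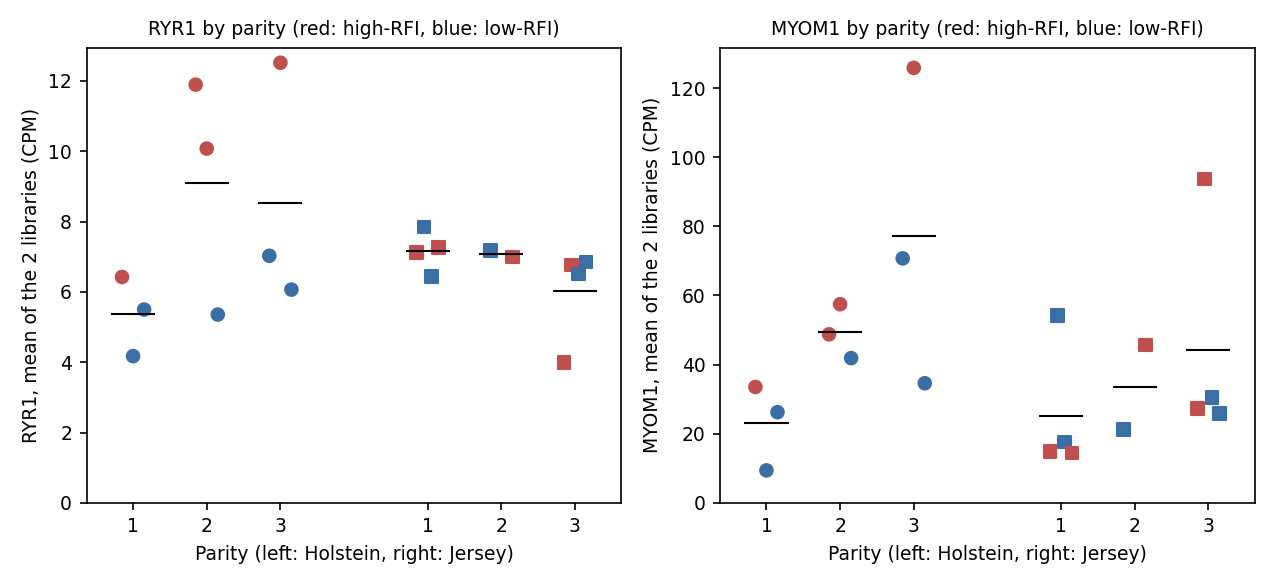
Cow means of RYR1 (left) and MYOM1 (right) in CPM by parity, Holsteins as circles and Jerseys as squares, high-RFI in red and low-RFI in blue, with a line at the mean of each parity. The Holstein means of MYOM1 step up from 23.0 to 77.1 CPM, while the RYR1 cows of parities 1 and 3 overlap in Holsteins and their Jersey means are 7.16 and 6.03 CPM.

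Breed was compared on the summed libraries of each cow. CHRNE averaged 12.7 ± 10.1 CPM in Holsteins (SD, n = 9) and 5.51 ± 3.96 CPM in Jerseys (SD, n = 10), but the medians, 4.55 and 4.41 CPM, were close, because 4 Holsteins and 1 Jersey were high. The log2 fold change, Holstein minus Jersey, was 0.98 (SE 0.50, adjusted p = 0.292) in edgeR, and the adjusted p was 0.204 in DESeq2. It passed the threshold only in limma-voom with the cow as a random block, at 1.04 (SE 0.30, adjusted p = 0.0280). That fit used separate libraries and a correlation within cows shared by all genes, 0.121. In Holsteins CHRNE varied far less within than between cows, so this SE may be too small. In edgeR the log2 fold change was 1.23 without cow 4 (adjusted p = 0.0717) and 0.63 without cows 10 and 17 (adjusted p = 0.662). The exact permutation test over cow means gave p = 0.0452, or 0.361 after adjustment over the 16 tests. Since 4 of the 5 low-RFI Holsteins made up the high Holsteins, the value rests on the cows by which the gene was chosen. RYR1 averaged 7.67 ± 3.04 CPM in Holsteins (SD, n = 9) and 6.70 ± 1.03 CPM in Jerseys (SD, n = 10), and edgeR gave 0.11 on the log2 scale (SE 0.17, adjusted p = 0.759), or -0.01 without cow 2. Of 12103 genes, 409 were called for breed, 3.38%, and 0 of the 2 members in edgeR or DESeq2, with 0 and 1 of 2 at an unadjusted p below 0.05.

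**Figure D5:**
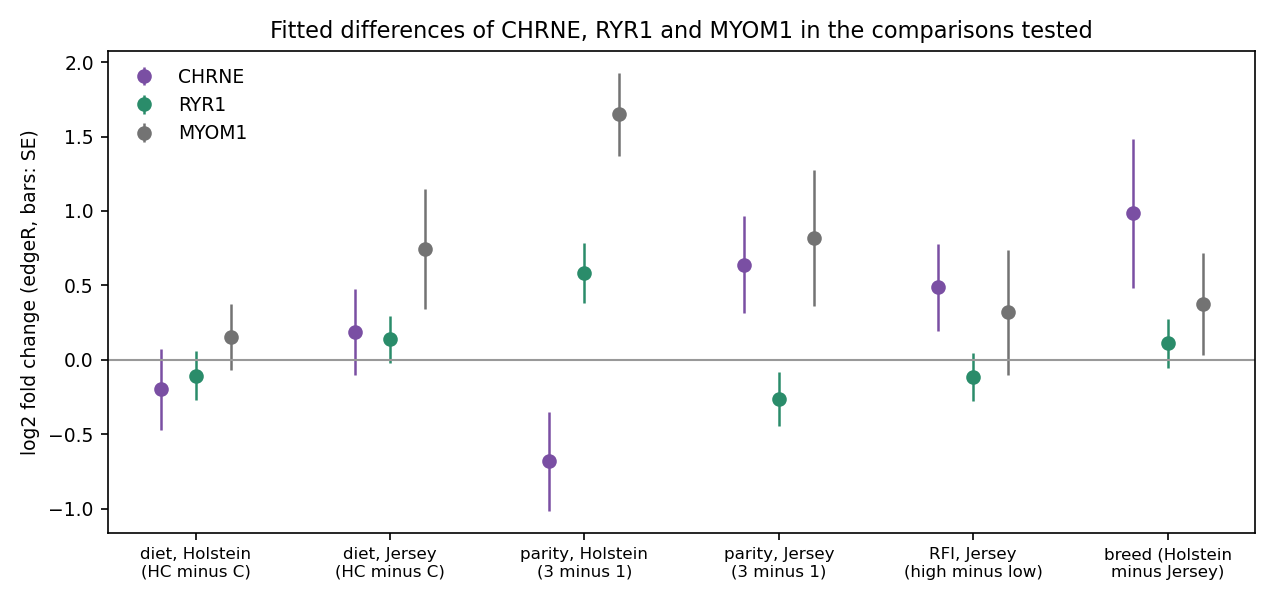
Log2 fold change and SE from edgeR for CHRNE, RYR1 and MYOM1 in the 6 comparisons tested, with a line at 0. Of these 18 values, that of MYOM1 between parities 3 and 1 in Holsteins, 1.65, is the one with an adjusted p below 0.05, and its adjusted p was 0.395 on libraries summed per cow and above 0.05 without cow 1, 2 or 16.

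The channel genes did not rise and fall together in the Jerseys in a way these cows could show. Over the 9 Jerseys other than cow 4, which stood apart, Pearson's r between the cow means was 0.29 (exact permutation p = 0.570) and Spearman's rho was 0.25 (exact permutation p = 0.521), both on the log2(CPM + 0.5) scale. Adjusted over the 5 relations computed, these p-values were 0.959 and 0.728, and r was 0.71 without the 2 cows farthest from the median of CHRNE. No value is given for Holsteins, whose cows chose the genes. Between MYOM1 and RYR1, r over the 10 Jersey cow means was -0.02 (permutation p = 0.959) and rho was -0.20 (permutation p = 0.583), with r at 0.05 without the 2 cows farthest from the median of MYOM1. Over the HC minus C differences of all 19 cows, r was again -0.02 (permutation p = 0.944) and rho was 0.27 (permutation p = 0.258), with r at 0.37 without the 2 farthest cows. Within breeds, r was -0.05 in Holsteins (exact permutation p = 0.896) and -0.08 in Jerseys (permutation p = 0.825).

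The genes whose levels were most like each channel gene were found by Pearson's r over the 19 cow means, centred on the breed, among 12103 genes. These values are a description, since the Holstein RFI groups enter them. For CHRNE the closest was ENSBTAG00000011815 (r = 0.76, with 0.84 in Holsteins and 0.33 in Jerseys). Rank 2 was ENSBTAG00000021319 (r = 0.75, with 0.80 in Holsteins and 0.70 in Jerseys). OXER1, a receptor for oxidised arachidonic acid products, came at rank 3 with r = 0.70, 0.81 in Holsteins and 0.27 in Jerseys. MTFP1, a mitochondrial fission protein, came at rank 4 with r = 0.70, 0.94 in Holsteins and -0.17 in Jerseys. Rank 5 was ENSBTAG00000010138 (r = 0.70, with 0.72 in Holsteins and 0.66 in Jerseys). For RYR1 the closest were ENSBTAG00000016740 (r = 0.87, with 0.92 in Holsteins and 0.65 in Jerseys) and LYZ, which encodes lysozyme of phagocytes and secretions (r = 0.86, with 0.94 in Holsteins and 0.54 in Jerseys). Ranks 3 to 5 were ENSBTAG00000016504, ENSBTAG00000010449 and ENSBTAG00000002678 (each r = 0.81). Their r was 0.89, 0.86 and 0.89 in Holsteins and 0.72, 0.66 and 0.56 in Jerseys. MYOM1 came at rank 280 for RYR1, with r = 0.56, 0.83 in Holsteins and -0.02 in Jerseys. For CHRNE, MYOM1 came at rank 8281, with r = -0.09, -0.48 in Holsteins and 0.80 in Jerseys. Cow 4 had the highest Jersey mean of both CHRNE and MYOM1, and her weight in that Jersey r was not tested. OXER1, MTFP1, LYZ and MYOM1 all stood on the study's Holstein list as well. Only the 77 genes with a paired symbol could be named here, and the other close genes had none. The shared list membership of the named genes is therefore no result.

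In the RefSeq gene table of another assembly, ARS-UCD2.0, CHRNE lay between RNF167, SLC25A11 and GP1BA on one side and C19H17orf107, MINK1 and PLD2 on the other. C19H17orf107 overlapped CHRNE there, and the strand setting of the counting is not given in the sources used here, so reads of the pair may not have been told apart. RYR1 lay between SPRED3, FAM98C and RASGRP4 on one side and MAP4K1, EIF3K and ACTN4 on the other.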

How the data were processed

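After adapter removal with cutadapt, the authors aligned the paired reads of the stranded mRNA libraries to UMD3.1 with STAR 2.3.0 and the Ensembl annotation, and deposited raw counts of read pairs per gene from HTSeq-count, 1 table per library. The strand setting is not given in the sources used here. Rows without a gene stayed out of library sizes: read pairs assigned to no gene feature were 20.1% to 25.1% and ambiguous ones 0.012% to 0.0285% of a library. No columns of values were left unused, and no 2 libraries held identical counts.

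CPM was computed over the read pairs on genes, with exact Poisson counting intervals (95%), which cover counting error only. Genes that reached 1 CPM in 8 or more Holstein libraries, or in 10 or more Jersey libraries, were tested, as in the study (12025 and 11905 genes, both channel genes included). The main test was edgeR 4.0.16 (quasi-likelihood, TMM, R 4.3.3), with parity, diet and RFI group per breed and no term for the cow, and, for breed, parity and RFI group on the summed libraries of each cow. p-values were Benjamini-Hochberg adjusted over all genes tested, with a threshold of 0.05. Libraries of a cow are not independent. The RFI and parity fits without the cow treat them as if they were, so fits on summed libraries were run beside them. The random block in limma-voom used a correlation within cows shared by all genes: 0.192 in Holsteins, 0.0781 in Jerseys and 0.121 over both breeds. For a gene whose libraries are closer within a cow, it corrects only in part. Single values were tested by two-sided exact permutation over cows (scipy 1.17.1) on log2(CPM + 0.5). Correlation p-values over 10 or more cows used 100000 permutations. The alternatives were DESeq2 1.42.0, limma-voom 3.58.1, other scaling, filters, covariates and crossover period, and leaving out cows, and the fits were checked on simulated data. 4 were added after seeing the data: the fixed block without cows 10 and 17, the diet difference between breeds, the same for CHRNE without cow 4, and the relations of MYOM1 with RYR1. The relation of CHRNE with RYR1 had been planned over all 10 Jerseys, with no r if the cows fell in clusters. Leaving cow 4 out of it was also decided after seeing the data.

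The numbers in the labels name the animal and were taken to pair its C and HC libraries. Over all tested genes, deviations of a cow's libraries from the group means correlated by 0.409 on average in Holsteins (lowest 0.208) and 0.285 in Jerseys (lowest -0.141, cow 14), against -0.0508 and -0.0315 for different cows. In cows 10 and 17 they correlated by 0.0774 and 0.219. With the HC libraries crossed, the C library of cow 17 and the HC library of cow 10 correlated by 0.0814. The C library of cow 10 and the HC library of cow 17 correlated by -0.0298. Fits without cows 10 and 17 kept cow 14, and no fit left out all of these cows.

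Named genes were the members, the 5 genes most like each, the neighbours in the annotation, and list genes past a test. The members and lists were chosen with earlier results of these data known. Of the 19 lists, 15 had no identifier and no list had more than 25% of its genes paired, so none was tested. CD3D and NKG7, the 2 T and NK cell markers with identifiers, passed no test. No genome or sequence of the files' build was used here, so no coordinates or sequences are given.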

Additional observations from a re-analysis of the deposited data

Results flagged for a closer look

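Single cows stood apart from the others of their group in 7 of the 24 sets of levels tested (each gene, breed and RFI group, on C, on HC and as the mean of both), by the gap to the nearest cow relative to the range of the group (Dixon's 95% limit). Chance flags about 1 in 20 such sets, and the 3 levels of a cow are not independent of each other. Cow 6 had low CHRNE for a low-RFI Holstein, at 5.05 CPM on C, 3.77 CPM on HC and 4.41 CPM in the mean. Cow 4 had high CHRNE for a high-RFI Jersey, at 11.9 CPM on C, 21.5 CPM on HC and 16.7 CPM in the mean. Cow 3 had low RYR1 for a high-RFI Jersey in the mean of both diets, 3.99 CPM.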

How the results depend on the processing

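Of 78 fits of CHRNE and RYR1 under other settings, leaving-out of single cows aside, 1 passed the threshold: CHRNE between breeds in limma-voom taking each cow as a random replicate block, 1.04. The counts of genes called over the whole table moved more, and the cause was not tested. Diet in Holsteins (94 called) gave 343 in DESeq2, 345 when each cow was a fixed replicate block and 48 without parity. Parity in Holsteins (46) gave 199 in DESeq2, 1 on summed libraries and 7 with the random block. RFI in Jerseys (4) gave 8 without a filter, 21 in DESeq2, 0 on summed libraries in edgeR (461 genes at an unadjusted p below 0.05) and 2 without parity. Diet in Jerseys (44) gave 196 in DESeq2, 71 with the fixed block, 21 with that block and without cows 10 and 17, 6 without these cows and no block, and 0 without parity in edgeR (1318 at an unadjusted p below 0.05). Parity in Jerseys (27) gave 64 without a filter, 269 in DESeq2, 0 on summed libraries in edgeR (1158 at an unadjusted p below 0.05) and 10 with the random block. Breed (409) gave 828 in DESeq2, 1172 on separate libraries, 871 with the random block and 72 without cows 10 and 17. The block changed no other call of a channel gene. The RFI-by-diet difference of RYR1 in Jerseys turned to 0.0486 without cows 10 and 17. Without 1 cow at a time, genes called ranged from 13 to 134 for diet in Holsteins, 5 to 86 for parity in Holsteins, 1 to 6 for RFI in Jerseys, 3 to 51 for diet in Jerseys, 3 to 99 for parity in Jerseys and 192 to 758 for breed. In the same way, log2 values ranged from -0.18 to 0.0375 for RYR1 and diet in Holsteins, -0.0623 to 0.65 for CHRNE and RFI in Jerseys, -0.0398 to 0.85 for CHRNE and parity in Jerseys, and -0.0126 to 0.19 for RYR1 and breed, none of them past the threshold. RFI-by-diet differences of CHRNE ranged from -0.0363 to 0.12 in Holsteins and -0.17 to 0.16 in Jerseys, and those of RYR1 from 0.0107 to 0.64 and -0.44 to -0.0167. At 53 read pairs, the lowest CHRNE count, counting error alone limits small differences.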

Other observations

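The mean HC minus C difference of CHRNE was -0.22 in Holsteins and 0.08 in Jerseys on the log2(CPM + 0.5) scale. The difference between the breeds, tested after seeing the data, was -0.30 (exact permutation p = 0.0797, or 0.159 adjusted over both genes). Without Jersey cow 4 the Jersey mean was 0.000129 and the difference -0.22 (exact permutation p = 0.148). For RYR1 the difference was -0.17 (exact permutation p = 0.540).

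MYOM1 ranged from 8.38 to 145 CPM over the libraries. The C and HC libraries of Jersey cow 14 gave 17.9 and 90.6 CPM of MYOM1, while RYR1 in the same libraries gave 10.3 and 5.39 CPM.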
